A study of Mus musculus with 65 samples.

Results

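The TGF-beta ligands, receptors and latent binding proteins were followed in mouse mammary glands and mammary tumours through 10 genes, the ligands Tgfb1, Tgfb2 and Tgfb3, the receptors Tgfbr1, Tgfbr2 and Tgfbr3, the coreceptor Eng, and the latent binding proteins Ltbp1, Ltbp3 and Ltbp4. The members were all probe sets that the platform annotation assigns to 1 of these genes alone, which gave 25 of the 34958 single-gene probe sets and 10 of the 18194 genes measured. Messenger RNA came from 65 Affymetrix arrays, 17 of glands and 48 of tumours. The gland donors were BALB/c littermates, 10 weeks old, heterozygous (Het) or wild-type (WT) for Tgfb1, and all received estrogen and progesterone 2 days before exposure. The 8 Het glands were 3 sham-treated, 2 taken 1 week after 10 cGy and 3 taken 4 weeks after 10 cGy, and the 9 WT glands were 3 of each kind. Since all sham glands were collected at 1 week, a difference between 4-week and sham glands also spans 3 weeks of age. Tissue was the posterior part of the inguinal gland without its lymph node. The tumours arose from p53-null mammary fragments transplanted into BALB/c fat pads cleared of epithelium at 3 weeks of age, 3 days after the host had been irradiated or sham-treated. The 16 tumours of Het hosts were 10 from irradiated and 6 from sham hosts, and the 32 tumours of WT hosts were 23 from irradiated and 9 from sham hosts. In tumours the Tgfb1 genotype is that of the host cells, not of the transplanted epithelium. The labels used here give no dose for the tumour hosts. The comparisons ask how lower host Tgfb1 and irradiation bear on mammary tissue and on tumours that grow in it.

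TGF-beta is secreted as an inactive complex, in which the ligand stays bound to its own propeptide and, through it, to a latent binding protein that anchors it in the extracellular matrix. Once released, the ligand binds the type II receptor (Tgfbr2), which activates the type I receptor (Tgfbr1), and the signal passes to Smad proteins in the nucleus. In the mammary gland TGF-beta is known as a brake on ductal growth and as a regulator of stroma and matrix.

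Tgfb1 lies on chromosome 7 and Eng on chromosome 2 of the mouse genome. Their promoter windows, from 250 bases before to 50 bases after the annotated start, are shown because Tgfb1 is the gene with the missing copy and Eng was the member with the highest Pearson r with Tgfb1 over all 48 tumours. Both are from RefSeq, build GRCm38.p6, plus strand, at chr7:25686752-25687051 for Tgfb1 and chr2:32646345-32646644 for Eng. Capitals mark matches on either strand to GGGCGG, the GC box of Sp1-type factors, or to AGGAAG, a form of the Ets core. No GGGCGG match shares bases with an AGGAAG match.
Tgfb1: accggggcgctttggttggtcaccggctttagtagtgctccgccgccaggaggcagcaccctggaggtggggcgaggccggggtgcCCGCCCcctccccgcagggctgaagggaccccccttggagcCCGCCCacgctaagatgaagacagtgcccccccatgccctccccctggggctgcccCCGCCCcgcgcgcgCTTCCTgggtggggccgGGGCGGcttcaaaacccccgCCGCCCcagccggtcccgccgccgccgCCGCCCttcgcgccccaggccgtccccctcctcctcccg
Eng: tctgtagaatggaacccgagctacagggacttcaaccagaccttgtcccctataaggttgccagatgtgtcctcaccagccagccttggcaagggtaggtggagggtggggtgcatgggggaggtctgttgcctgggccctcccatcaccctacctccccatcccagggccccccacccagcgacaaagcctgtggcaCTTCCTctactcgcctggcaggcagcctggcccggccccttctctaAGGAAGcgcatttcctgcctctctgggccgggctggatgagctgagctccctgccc
The Tgfb1 window held 6 matches to GGGCGG and 1 to AGGAAG, and the Eng window held 0 and 2. Of 32851 promoter windows of the same length, 35.7% held GGGCGG and 35.4% held AGGAAG at least once, so holding at least 1 match of either kind is common. How many windows held 6 matches to GGGCGG or 2 to AGGAAG was not counted. The promoter table held windows for 8 of the 10 members.

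Levels are log2 of the values the authors made with RMA, and a difference of 1 is a 2-fold change. Levels of different probe sets depend on the probes and were not compared with each other. Differences were fitted with limma in 1 model per tissue over 20975 probe sets whose mean lay at or above the 40th percentile, with p-values adjusted over all of them and called at adjusted p under 0.05. All 10 genes kept at least 1 probe set, and 18 of the 25 probe sets passed in each tissue. The same 7 stayed below in both, namely Tgfb1 1445360_at, Tgfbr1 1420893_a_at and 1420894_at, Tgfbr2 1422019_at, Tgfbr3 1425620_at, and Ltbp1 1419786_at and 1447547_at. In these bulk samples fewer cells of a type and less RNA per cell cannot be told apart. Some glands stood apart in other tissue: the mean of 10 skeletal muscle markers ranged from 4.13 to 8.29 in Het and from 4.00 to 11.92 in WT glands, and that of 8 measured lymphoid markers from 4.32 to 7.15 in Het and from 4.11 to 8.09 in WT glands. Epithelial markers were high in every gland, at 9.96 to 10.60 in Het and 10.05 to 10.60 in WT. Their mean was 7.14 to 8.08 in 4 tumours, all of WT hosts, and 9.34 or more in the other 44. In 1 tumour, placed by its title among irradiated WT hosts, the labels disagree on treatment.

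Tgfb1, the most widely made ligand, was lower in Het than in WT glands, and it was the only member called in the comparison of genotypes averaged over sham, 1 week and 4 weeks. Probe set 1420653_at had 4.48, 4.09 and 4.67 in Het sham glands, against 5.10, 5.04 and 5.13 in WT sham glands. At 1 week after 10 cGy it had 3.85 and 3.81 in Het, against 5.45, 5.32 and 4.69 in WT. At 4 weeks it had 4.30, 4.65 and 4.31 in Het, against 4.90, 5.31 and 4.57 in WT. Of the 8 Het glands 6 lay below every WT gland, and the overlap came from 1 WT gland at 4 weeks. The averaged Het minus WT difference was -0.84 (SE 0.13, limma adjusted p = 0.0402). The probe set entered the test through the WT glands: 6 of 8 Het glands and 0 of 9 WT glands lay below the filter of 4.55, which was set on the mean of all glands. With no filter the limma adjusted p was 0.037. Over all tested probe sets 9 were called, or 0.0429%, against 1 of 18 among the members. The median difference was -0.03 over the 18 members and -0.02 over all tested probe sets.

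The Tgfb1 difference stood near the threshold. Leaving out 1 gland at a time gave -0.91 to -0.77, and the call was kept without WT 1-week replicate 3, WT 4-week replicate 3, Het sham replicate 2 or 3, or Het 4-week replicate 2. It was lost without any of the other 12, with limma adjusted p from 0.054 to 0.152. The call was also lost without the 4 muscle-rich glands, all WT (-0.98, limma adjusted p = 0.106), and without the 3 lymphoid-rich glands (-0.80, limma adjusted p = 0.14). Within single conditions the Het minus WT difference was -0.68 (SE 0.22, adjusted p = 0.982) in sham glands, -1.32 (SE 0.24, adjusted p = 0.461) at 1 week and -0.51 (SE 0.22, adjusted p = 0.849) at 4 weeks, none of them called by limma. The 2 Het glands at 1 week were the lowest of all 17, and they differed widely in milk protein markers, whose mean was 7.02 in one and 12.66 in the other. Whether the size of the genotype difference changed after irradiation was tested as an interaction, which was -0.65 at 1 week (SE 0.32, limma adjusted p = 1) and 0.17 at 4 weeks (SE 0.30, limma adjusted p = 1). The dimmer Tgfb1 probe set, 1445360_at, lay at 3.57 to 4.08 in Het and 3.57 to 4.30 in WT glands, under the filter, and did not separate the genotypes. The labels do not say which part of the gene the mutant allele lacks.

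**Figure D1:**
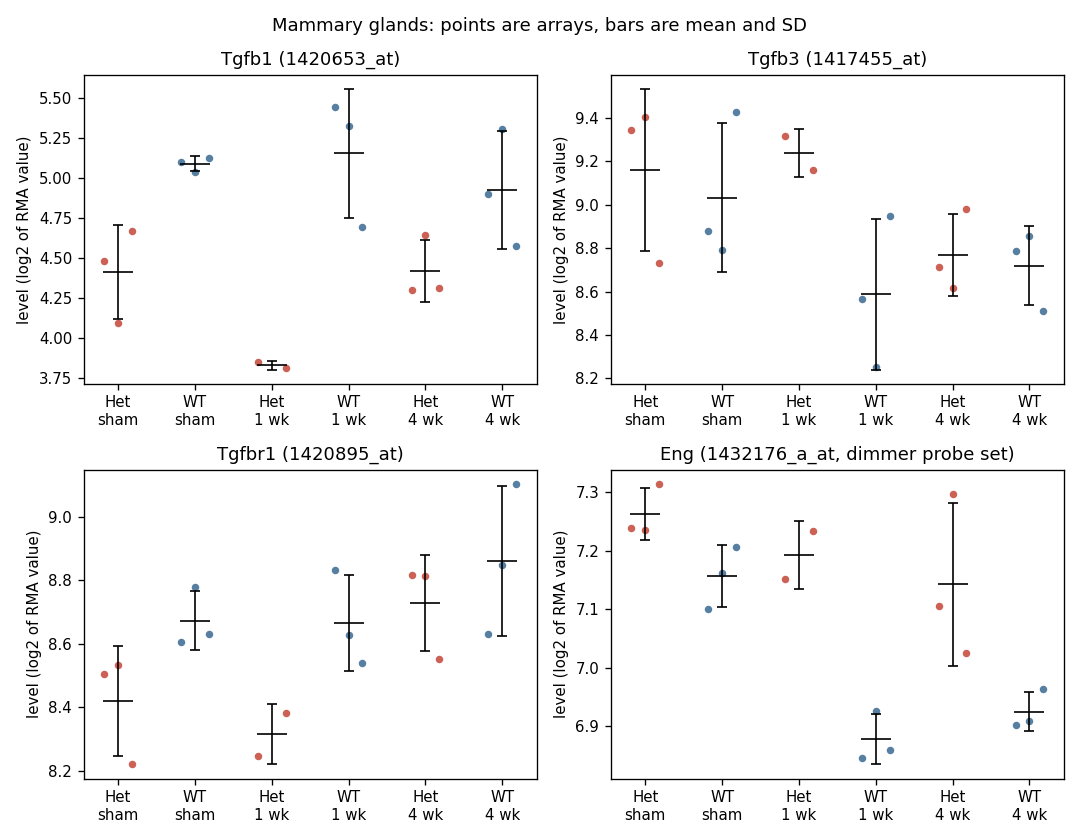
Levels (log2 of RMA values) of Tgfb1, Tgfb3, Tgfbr1 and the dimmer Eng probe set in each gland, with Het (red) left of WT (blue) for sham, 1 week and 4 weeks after 10 cGy, and bars for mean and SD. The Tgfb1 values of Het glands reach from 3.81 to 4.67 and those of WT glands from 4.57 to 5.45.

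The other ligands gave no call between genotypes. Tgfb3, the ligand tied to milk stasis and involution in the mouse gland, had 9.35, 9.40 and 8.73 in Het sham glands, against 8.88, 8.79 and 9.43 in WT sham glands. At 1 week it had 9.32 and 9.16 in Het, above all 3 WT values of 8.56, 8.25 and 8.95. At 4 weeks it had 8.71, 8.62 and 8.98 in Het, against 8.79, 8.86 and 8.51 in WT. The groups overlapped in sham and at 4 weeks. The averaged Het minus WT difference was 0.28 (SE 0.13, limma adjusted p = 0.439), and the one at 1 week was 0.65 (SE 0.24, limma adjusted p = 0.626). The 4 Tgfb2 probe sets gave averaged Het minus WT differences of -0.01, 0.24, 0.02 and 0.02, with SE of 0.13 to 0.21. Het and WT values of Tgfb2, a ligand made in mammary epithelium and stroma, overlapped in sham and 1-week glands at every probe set. At 4 weeks the dim probe set 1438303_at had 5.28, 5.30 and 5.16 in Het, above 4.91, 4.77 and 5.01 in WT, while the other 3 overlapped.

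Among the receptors, Tgfbr1, the signalling type I kinase, had lower values in Het glands in sham and at 1 week. Its bright probe set 1420895_at had 8.51, 8.53 and 8.22 in Het sham glands, against 8.61, 8.78 and 8.63 in WT sham glands. At 1 week it had 8.25 and 8.38 in Het, against 8.83, 8.63 and 8.54 in WT. At 4 weeks it had 8.82, 8.81 and 8.55 in Het, against 8.63, 8.85 and 9.11 in WT, and the genotypes overlapped. The averaged difference was -0.25 (SE 0.08) and was not called (limma adjusted p = 0.325). Tgfbr2, the type II kinase that binds the ligand first, had 10.52 and 10.74 in Het glands at 1 week, below the WT values of 10.85, 11.67 and 11.23. That difference was -0.62 (SE 0.24, limma adjusted p = 0.64), and the genotypes overlapped in sham and at 4 weeks. Tgfbr3, or betaglycan, which presents ligand to the type II receptor, differed by -0.13 on average (SE 0.09, limma adjusted p = 0.56).

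Endoglin, encoded by Eng, is a coreceptor made chiefly by endothelial cells, and its probe sets did not give the same picture. The dimmer one, 1432176_a_at, had 7.24, 7.24 and 7.31 in Het sham glands, against 7.10, 7.16 and 7.21 in WT sham glands. At 1 week it had 7.15 and 7.23 in Het, against 6.85, 6.93 and 6.86 in WT. At 4 weeks it had 7.11, 7.30 and 7.03 in Het, against 6.90, 6.91 and 6.96 in WT. Het values were thus above WT values within each of the 3 conditions, with an averaged difference of 0.21 (SE 0.06) that was not called (limma adjusted p = 0.255). The brighter probe set 1417271_a_at gave 0.07 (SE 0.07, limma adjusted p = 0.702), with overlap in every condition. The mean of 10 endothelial markers was 7.45 to 8.00 in Het and 7.46 to 8.08 in WT glands.

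The latent binding proteins showed no call. Ltbp1, which targets the latent complex to matrix, had an averaged Het minus WT difference of -0.28 (SE 0.12, limma adjusted p = 0.427). Its values at 1 week were 7.56 and 7.63 in Het, below 7.74, 8.01 and 7.82 in WT. The 4 Ltbp3 probe sets gave -0.12, -0.29, -0.05 and -0.19, with SE of 0.08 to 0.21, all negative and none called. Probe sets with the suffixes _s_at and _x_at, which can bind more than 1 transcript, are among them. At 4 weeks Ltbp3 1438312_s_at had 10.79, 10.60 and 10.75 in Het, below 11.10, 10.80 and 10.96 in WT, and 1418049_at did not overlap either, with 9.46 to 9.71 in Het and 9.73 to 9.93 in WT. Ltbp4, which binds Tgfb1 and also serves elastic fibres, gave 0.03 (SE 0.12, limma adjusted p = 0.941). At 4 weeks its values of 6.29, 6.60 and 6.37 in Het lay above 5.90, 6.09 and 6.22 in WT, and in sham and at 1 week the genotypes overlapped.

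**Figure D2:**
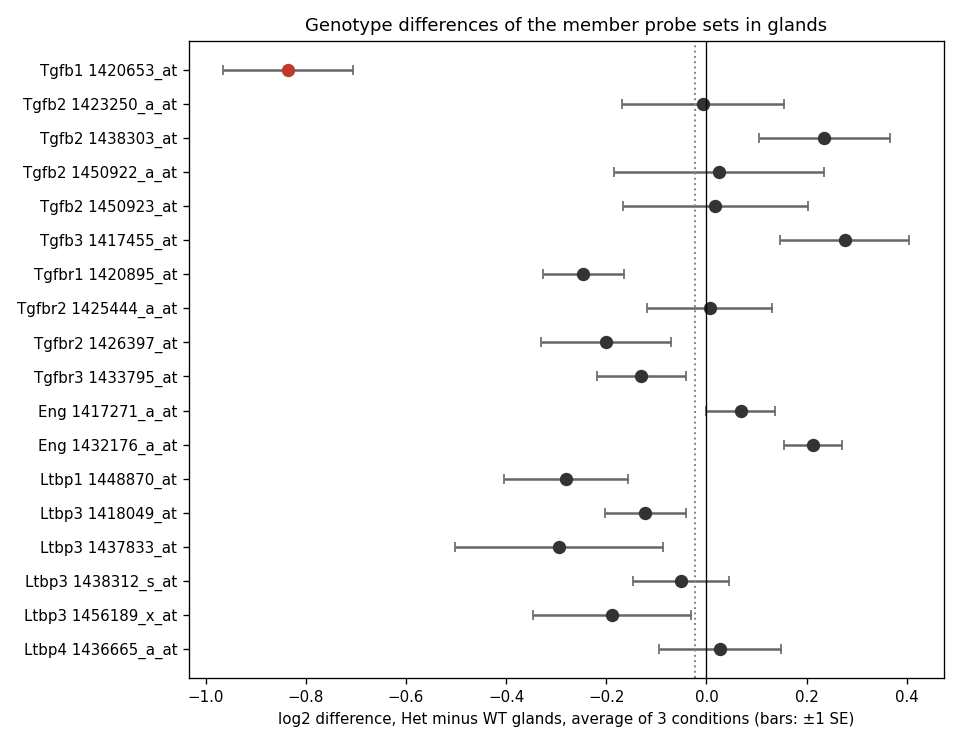
Averaged Het minus WT differences (log2) of the 18 tested member probe sets in glands, with bars of 1 SE, the called one in red, and a dotted line at the median of all tested probe sets. Tgfb1 stands at -0.84, and the next largest differences in size are -0.29 for an Ltbp3 probe set and -0.28 for Ltbp1.

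Within single conditions the groups are small, and non-overlap of Het and WT was common over all probe sets. In sham glands 3 of 18 member probe sets did not overlap, or 16.7%, against 8.12% of all tested. At 1 week 6 of 18 did not overlap, or 33.3%, against 21.6%, and at 4 weeks 5 of 18, or 27.8%, against 11.9%. In all 3 conditions there was 1 of 18, Eng 1432176_a_at, and 0.386% of all probe sets. With limma 0 members were called within sham glands, at 1 week or at 4 weeks, where 0%, 0.00477% and 0.0143% of all probe sets were called. At unadjusted limma p under 0.05 there were 1, 5 and 2 of 18 members, against 3.71%, 7.47% and 5.74% of all probe sets.

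Irradiation was examined within each genotype, and 0 of 18 member probe sets were called at either time in either genotype, as were 0% of all probe sets. At unadjusted limma p under 0.05 there was 1 of 18 member probe sets in each of these 4 comparisons. They were Eng 1432176_a_at in WT at 1 and at 4 weeks, Tgfb1 in Het at 1 week and Tgfbr1 in Het at 4 weeks. The background of all probe sets was 4.31%, 2.06%, 3.79% and 5.66% in that order. In WT glands all 6 irradiated values of Eng 1432176_a_at, 6.85 to 6.96, lay below all 3 sham values, 7.10 to 7.21. Non-overlap of all irradiated and sham WT glands held for 1 of 18 members and for 0.825% of all probe sets. The irradiated minus sham difference was -0.28 (SE 0.10, limma adjusted p = 0.997) at 1 week and -0.23 (SE 0.10, limma adjusted p = 1) at 4 weeks. The brighter Eng probe set gave 0.09 and 0.01 in the same comparisons. The change of Eng 1432176_a_at in Het minus that in WT was 0.21 at 1 week (SE 0.14) and 0.11 at 4 weeks (SE 0.14), both with a limma adjusted p of 1.

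In Het glands Tgfb1 at 1 week differed from Het sham by -0.58 (SE 0.24, limma adjusted p = 0.998), with 3.85 and 3.81 against 4.48, 4.09 and 4.67. In WT glands the matching difference was 0.07 (SE 0.22, limma adjusted p = 0.997). Tgfbr1 in Het glands at 4 weeks, with 8.82, 8.81 and 8.55, lay above Het sham glands with 8.51, 8.53 and 8.22. That difference was 0.31 (SE 0.14, limma adjusted p = 0.858). Het values at 1 week and in sham did not overlap for 2 of 18 members, or 11.1%, and for 16.4% of all probe sets. The same count at 4 weeks was 2 of 18, against 12.8% of all probe sets. Neither interaction gave a called member by limma or a member at unadjusted p under 0.05, where 0% and then 2.79% of all probe sets at 1 week and 2.11% at 4 weeks passed.

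Between 4 and 1 weeks after 10 cGy, averaged over genotypes, 0 of 18 members and 0% of all probe sets were called. Betaglycan and the type I receptor had the smallest p-values. Tgfbr3 1433795_at had 11.20, 11.40 and 10.86 at 4 weeks and 10.50 and 10.98 at 1 week in Het glands. In WT glands it had 11.12, 11.10 and 11.32 at 4 weeks and 10.79, 10.95 and 11.00 at 1 week. The difference was 0.34 (SE 0.11, limma adjusted p = 0.22), and Tgfbr1 1420895_at gave 0.30 (SE 0.10, limma adjusted p = 0.225). At unadjusted p under 0.05 there were 3 of 18 members, these and Ltbp3 1437833_at, and 15% of all probe sets. The median of all probe sets in this comparison was 0.07.

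Other genes of the pathway were read from 3 lists, one of storage and activation of latent TGF-beta (18 tested of 21), one of Smads and their regulators (13 of 13), and one of genes that TGF-beta is known to induce (17 of 18). None of the 48 was called by limma in any of the 16 comparisons. In the averaged genotype comparison 15 of 18 storage and activation genes had negative differences, with a median of -0.14, against -0.02 over all tested probe sets. The gene with the smallest p in that list went the other way: Mmp9, a gelatinase that can release TGF-beta, was 0.88 higher in Het (SE 0.16, limma adjusted p = 0.0674), and 1.56 higher at 4 weeks (SE 0.26, limma adjusted p = 0.0759). Mmp2, the other gelatinase, gave -0.46 (SE 0.16, limma adjusted p = 0.342), and the integrin subunit Itgb8, which activates latent TGF-beta, -0.40 (SE 0.16, limma adjusted p = 0.389). Of the Smad list 11 of 13 had negative differences, with a median of -0.08, led by Smurf2, a ubiquitin ligase of the receptors, at -0.21 (SE 0.06, limma adjusted p = 0.3). Ski, a Smad corepressor, gave -0.18 (SE 0.07, limma adjusted p = 0.367), and Bambi, a decoy receptor, -0.30 (SE 0.12, limma adjusted p = 0.394). Of the induced genes 13 of 17 had negative differences, with a median of -0.16. Some marker lists of other cells also had negative differences, in 10 of 10 fibroblast genes (median -0.08), 10 of 10 macrophage genes (median -0.10) and 10 of 10 skeletal muscle genes (median -1.66). In the endothelial and epithelial lists 7 of 10 were negative, and in the lymphoid list 5 of 6. The adipocyte list went the other way, with 7 of 8 positive and a median of 0.13. The milk list had 4 positive and 4 negative. The mean of the fibroblast list was 9.70 to 10.10 in Het and 9.64 to 10.57 in WT glands, and that of the macrophage list 9.77 to 10.44 in Het and 9.37 to 10.97 in WT. The part of these cells in the collagen values was not tested. Those induced genes with the smallest p were the fibrillar collagen genes Col1a1, at -0.50 (SE 0.10, limma adjusted p = 0.0955), and Col1a2, at -0.26 (SE 0.06, limma adjusted p = 0.171), and the collagen crosslinking enzyme Lox, at -0.68 (SE 0.19, limma adjusted p = 0.268). At unadjusted p under 0.05 there were 3 of 18, 3 of 13 and 6 of 17 genes in the lists, and 11.4% of all probe sets.

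In the tumours 0 of 18 member probe sets were called in any of the 5 comparisons. Of all probe sets 0% were called for Het hosts irradiated against sham, for sham hosts Het against WT and for the interaction, and 0.00477% each for WT hosts irradiated against sham and irradiated hosts Het against WT. At unadjusted limma p under 0.05 there was 1 of 18 for genotype in sham hosts (Tgfb1) and 1 in irradiated hosts (Eng 1432176_a_at), against 5.68% and 6.8% of all probe sets. There were 0 of 18 for irradiation in Het and in WT hosts and for the interaction, against 3.76%, 7.66% and 4.47%. Single tumours spread widely. Over the 48 tumours the span between lowest and highest was 1.58 for Tgfbr1 1420895_at, 4.86 for Tgfb1 1420653_at and 6.53 for Ltbp1 1448870_at on the log2 scale.

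Tgfb1 in tumours of irradiated Het hosts had a lowest value of 8.04, a median of 8.58 and a highest of 9.29, against 6.47, 8.51 and 9.10 in tumours of sham Het hosts. In irradiated WT hosts the lowest, median and highest were 7.88, 8.72 and 10.03, against 8.08, 9.03 and 11.33 in sham WT hosts. All 4 groups overlapped. In sham hosts the Het minus WT difference was -0.94 (SE 0.31), with 8.23 ± 0.94 (SD, n = 6) in Het and 9.18 ± 0.91 (SD, n = 9) in WT, and it was not called (limma adjusted p = 0.798). Single tumours at either end carried part of it: it was -0.59 without sham Het tumour 3 and -0.67 without sham WT tumour 5. In irradiated hosts it was -0.23 (SE 0.22, limma adjusted p = 0.876). Irradiated minus sham was 0.29 in Het hosts (SE 0.30, limma adjusted p = 1) and -0.42 in WT hosts (SE 0.23, limma adjusted p = 0.68). Without sham Het tumour 3 the Het value was -0.06, and without sham WT tumour 5 the WT value was -0.15.

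Those tumours also stood apart in other members. Sham WT tumour 5 had 11.33 for Tgfb1, 11.40 for Eng and 9.83 for Ltbp4, the highest of all 48 in each. Its mean of 10 endothelial markers was 12.09, and the next highest tumour had 10.48. Sham Het tumour 3 had 6.47 for Tgfb1 and 4.68 for Ltbp1, the lowest of all 48 in each, and 10.34 for Tgfb2 1423250_a_at, the highest of all 48. Its endothelial mean of 6.36 was the lowest, and its epithelial mean was 11.01. Whether cell makeup sets these values was not tested.

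**Figure D3:**
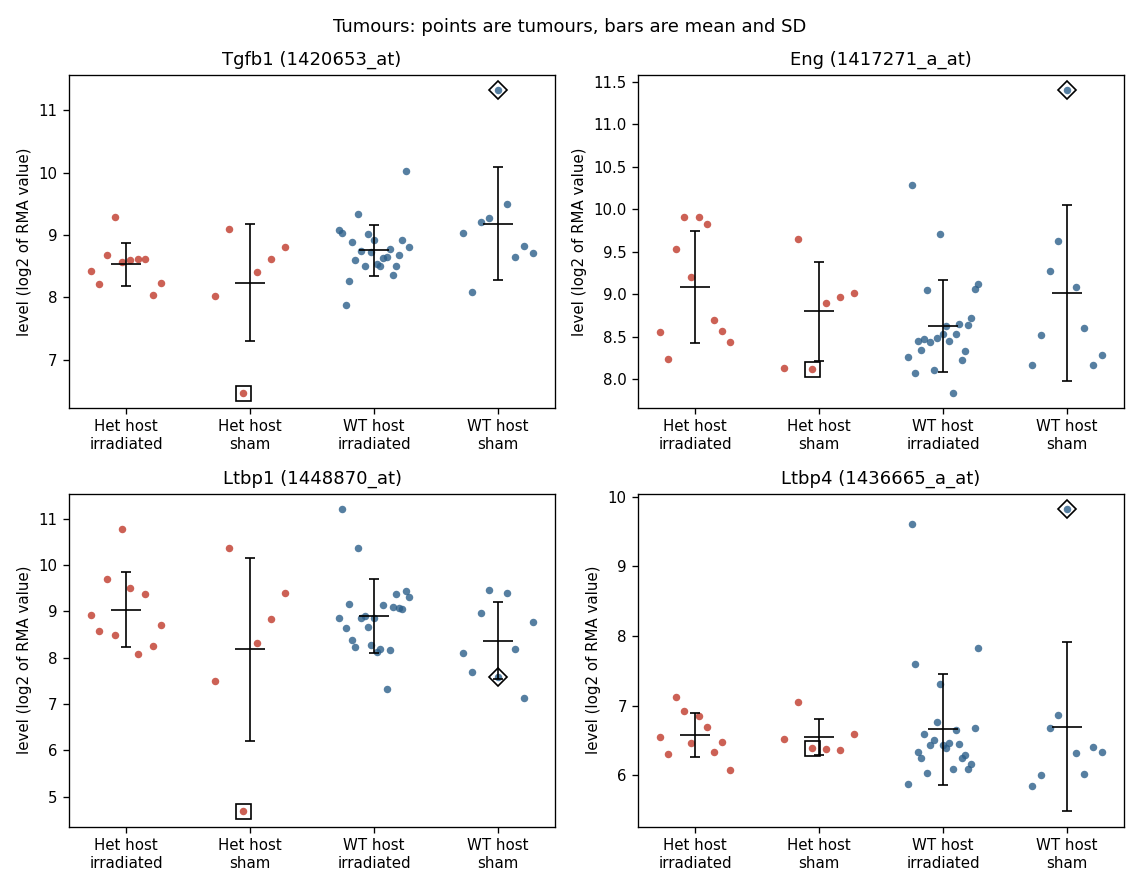
Levels (log2 of RMA values) of Tgfb1, Eng, Ltbp1 and Ltbp4 in each of 48 tumours by host genotype (Het red, WT blue) and host treatment, with mean and SD. The diamond marks sham WT tumour 5, at 11.33 for Tgfb1, and the square marks sham Het tumour 3, at 6.47.

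Eng 1417271_a_at had 8.24, 8.95 and 9.91 as lowest, median and highest in tumours of irradiated Het hosts, against 7.84, 8.49 and 10.28 in irradiated WT hosts. The Het minus WT difference was 0.46 (SE 0.25, limma adjusted p = 0.769), and the dimmer probe set gave 0.51 (SE 0.25, limma adjusted p = 0.733). With the endothelial marker mean as a covariate, chosen after seeing the data, the brighter one gave 0.14. In sham hosts the lowest, median and highest were 8.12, 8.93 and 9.66 in Het, against 8.16, 8.61 and 11.40 in WT. The endothelial marker mean was 8.14 ± 1.13 (SD, n = 10) in irradiated Het hosts and 7.56 ± 0.68 (SD, n = 23) in irradiated WT hosts. The part of endothelial cells in the Eng difference was not tested.

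The other members of the tumours are given as group means. Tgfb2 1423250_a_at averaged 8.24 ± 0.86 in irradiated Het, 8.91 ± 0.74 in sham Het, 8.44 ± 0.84 in irradiated WT and 8.56 ± 0.96 in sham WT hosts. Tgfb3 averaged 9.54 ± 0.74, 9.42 ± 0.58, 9.14 ± 0.82 and 9.35 ± 0.59 in the same order of groups. Both ligands had group means that lay closer together than 1 SD of the widest group. For the receptors the means were 10.45 ± 0.41, 10.25 ± 0.44, 10.35 ± 0.38 and 10.21 ± 0.33 for Tgfbr1, and 11.55 ± 0.38, 11.59 ± 0.50, 11.33 ± 0.48 and 11.53 ± 0.60 for Tgfbr2. Tgfbr3 averaged 9.84 ± 0.72, 9.75 ± 0.93, 9.55 ± 1.08 and 9.81 ± 0.55. The receptors' group means also lay within 1 SD of each other.

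Among the latent binding proteins, Ltbp1 averaged 9.04 ± 0.81 in irradiated Het, 8.18 ± 1.97 in sham Het, 8.90 ± 0.79 in irradiated WT and 8.37 ± 0.83 in sham WT hosts. Irradiated minus sham was 0.86 in Het hosts (SE 0.51, limma adjusted p = 1) and 0.53 in WT hosts (SE 0.39, limma adjusted p = 0.795). Without sham Het tumour 3 the value in Het hosts was 0.16. Ltbp3 1438312_s_at averaged 11.46 ± 0.44, 11.30 ± 0.42, 11.77 ± 0.80 and 11.61 ± 0.55 in the same order of groups. Ltbp4 averaged 6.58 ± 0.32, 6.55 ± 0.26, 6.66 ± 0.80 and 6.70 ± 1.22. The wide SDs of Ltbp4 in WT hosts came with 9.62 in irradiated WT tumour 2, which had the lowest epithelial mean, and 9.83 in sham WT tumour 5.

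Of the 3 pathway lists 0 genes were called in the tumours. For sham hosts 15 of 17 induced genes had positive Het minus WT differences, with a median of 0.25, against -0.02 over all tested probe sets. The smallest p among them was for Postn, a matrix protein, at 0.76 (SE 0.39, limma adjusted p = 0.894), followed by the contractile genes Acta2, at 1.00 (SE 0.60), and Tagln, at 0.87 (SE 0.58). Fibroblast markers were positive in that comparison too, in 7 of 9 genes, with a median of 0.14. In Het hosts 13 of 17 induced genes had negative irradiated minus sham differences, with a median of -0.42. Of the fibroblast markers 7 of 9 were negative there too, with a median of -0.53, and their mean was 6.64 to 9.99 in irradiated and 7.62 to 9.98 in sham Het hosts. Their part in the induced genes was not tested. Plod2, a collagen lysyl hydroxylase, had the smallest p there, at -0.82 (SE 0.29, limma adjusted p = 1), followed by Col1a1, at -0.80 (SE 0.48), and fibronectin, Fn1, at 0.67 (SE 0.48). These comparisons share the 6 tumours of sham Het hosts. Ltbp2, a relative of the members that is not thought to bind latent TGF-beta, gave -1.14 (SE 0.49, limma adjusted p = 0.865) for Het minus WT in sham hosts. After it in the storage and activation list came Thbs1, an activator of latent TGF-beta, at -0.68 (SE 0.37), and the transglutaminase Tgm2, at -0.46 (SE 0.25), both with a limma adjusted p of 0.894. Most of that list went the other way, with 14 of 18 genes positive and a median of 0.14.

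The members were next compared with each other across the 48 tumours, in 45 pairs of brightest probe sets, with p-values from 100000 permutations adjusted over the pairs. The tumours fall into 4 groups, and all share 1 normalization. By Pearson's r 8 pairs passed an adjusted p of 0.05, and by Spearman's rho 12, among them the same 8. Eng rose and fell with Ltbp4 (Pearson r = 0.73, Spearman rho = 0.53, adjusted permutation p = 0.00045 and 0.0015), and r was 0.49 without the 2 tumours farthest from the median of Eng. Tgfb1 and Eng had r = 0.62 and rho = 0.51 (adjusted permutation p = 0.00045 and 0.00198), and r = 0.43 without the 2 tumours farthest from the median of Tgfb1. Without the 2 tumours richest in endothelial markers it was 0.41, and r of Tgfb1 with Ltbp1, 0.38 over all tumours, was then the higher at 0.62. On deviations from the 4 group means r of Tgfb1 with Eng over all 48 tumours was 0.71. Tgfb2 and Tgfb3 had r = 0.54 and rho = 0.62 (adjusted permutation p = 0.0009 and 0.00045), and r = 0.62 without the 2 farthest tumours.

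Tgfbr1 and Tgfbr2 moved with Eng and with each other, while Tgfbr3 passed with no member by either measure, at r = 0.10 and rho = 0.14 with Eng (adjusted permutation p = 0.703 and 0.582, r = 0.07 without the 2 farthest tumours). Tgfbr2 and Eng had r = 0.55 and rho = 0.52 (adjusted permutation p = 0.0009 and 0.00198, r = 0.41 without the 2 farthest tumours). Tgfbr1 and Eng had r = 0.49 and rho = 0.56 (adjusted permutation p = 0.00315 and 0.00045, r = 0.45 without the 2). Tgfbr1 also went with Ltbp1 (r = 0.43, rho = 0.45, adjusted permutation p = 0.0137 and 0.0131, r = 0.42 without the 2) and with Tgfbr2 (r = 0.39, rho = 0.41, adjusted permutation p = 0.036 and 0.0274, r = 0.36 without the 2). The pair negative by r was Tgfb2 with Ltbp1 (r = -0.38, rho = -0.38, adjusted permutation p = 0.0383 and 0.0363), for which r was -0.23 without the 2 farthest tumours. The 4 pairs that passed by rho alone were Tgfb1 with Tgfbr1 (r = 0.35, rho = 0.38, adjusted permutation p = 0.0595 and 0.033, r = 0.39 without the 2), Tgfb2 with Eng (r = -0.33, rho = -0.39, adjusted permutation p = 0.0723 and 0.033, r = -0.24 without the 2), Ltbp3 with Ltbp4 (r = -0.30, rho = -0.39, adjusted permutation p = 0.098 and 0.033, r = -0.38 without the 2) and Eng with Ltbp1 (r = 0.31, rho = 0.37, adjusted permutation p = 0.098 and 0.0363, r = 0.40 without the 2).

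**Figure D4:**
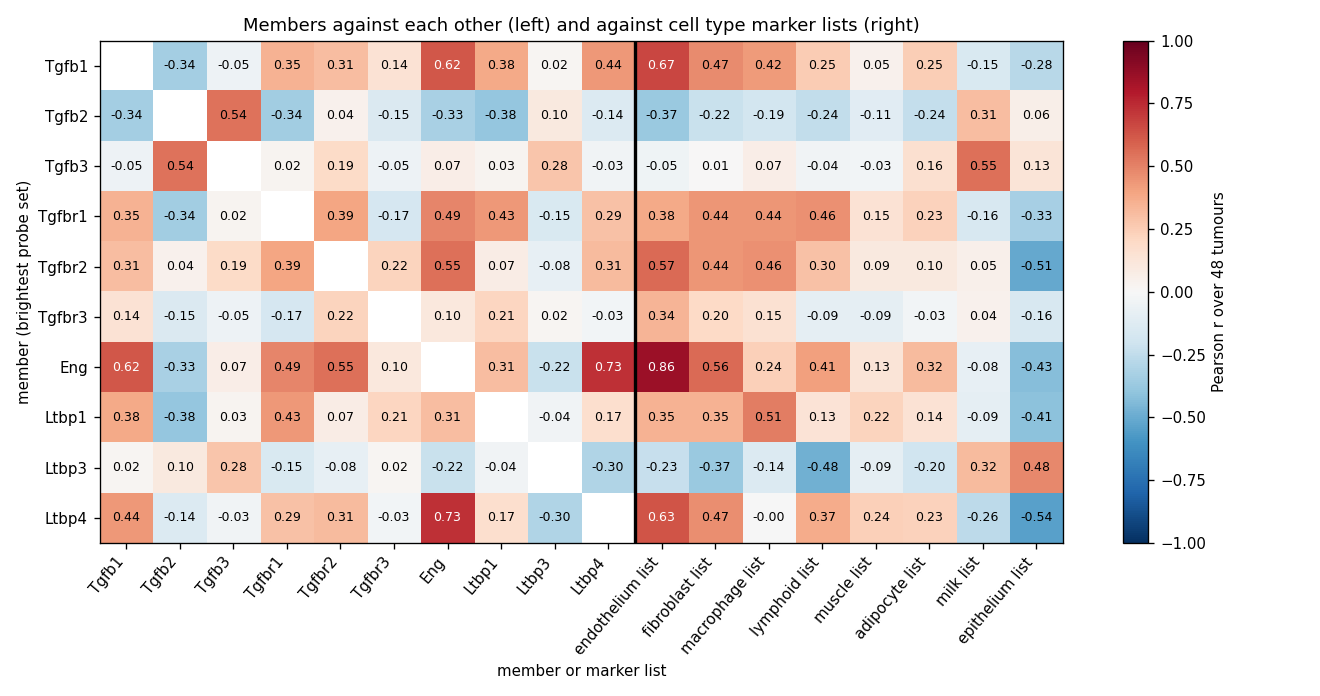
Pearson r over 48 tumours of each member with the other members (left) and with the means of 8 cell type marker lists (right). Eng stands out with 0.86 against the endothelial list and 0.73 against Ltbp4, and Tgfb2 and Tgfb3 share 0.54.

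Against the marker lists, 28 of 80 pairs passed an adjusted permutation p of 0.05 by r and 26 by rho, 24 of them by both. Ltbp1 with the endothelial list passed by rho alone (r = 0.35, rho = 0.47, adjusted permutation p = 0.0589 and 0.00662). Its r was 0.26 without the 2 farthest tumours and 0.67 without the 2 richest in endothelial markers. Eng with the macrophage list also passed by rho alone (r = 0.24, rho = 0.36, adjusted permutation p = 0.202 and 0.0409, 0.29 without the 2 farthest). Eng followed the endothelial list (r = 0.86, rho = 0.85, adjusted permutation p = 0.0004 for both), with r = 0.79 without the 2 farthest tumours. Tgfb1 followed it too (r = 0.67, rho = 0.51, adjusted permutation p = 0.0004 and 0.00411), with r = 0.45 without the 2. Ltbp4 had r = 0.63 and rho = 0.48 (adjusted permutation p = 0.0033 and 0.00631, 0.43 without the 2), and Tgfbr2 had r = 0.57 and rho = 0.53 (adjusted permutation p = 0.00096 and 0.0038, 0.48 without the 2). Tgfbr1 had r = 0.38 and rho = 0.45 (adjusted permutation p = 0.0262 and 0.00793, 0.42 without the 2). Tgfbr3 had r = 0.34 and rho = 0.42 (adjusted permutation p = 0.0453 and 0.0139, 0.35 without the 2). Tgfb2 went the other way, with r = -0.37 and rho = -0.43 (adjusted permutation p = 0.0311 and 0.0128, -0.38 without the 2). An unadjusted permutation p of 1e-05 is the smallest these permutations can give.

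Members also followed other lists. The fibroblast list passed by r with 7 members, Eng (r = 0.56), Tgfb1 (r = 0.47), Ltbp4 (r = 0.47), Tgfbr1 (r = 0.44), Tgfbr2 (r = 0.44) and Ltbp1 (r = 0.35) on the positive side and Ltbp3 (r = -0.37) on the negative. Their rho ran from 0.36 to 0.47 and was -0.41 for Ltbp3, all with adjusted permutation p at or below 0.0437 for r and 0.0409 for rho, and r without the 2 farthest tumours ran from 0.32 to 0.48 and was -0.42 for Ltbp3. Ltbp3 rose with the epithelial list (r = 0.48, rho = 0.43, adjusted permutation p = 0.00517 and 0.0128, 0.45 without the 2 farthest tumours). Tgfbr2 and Ltbp4 fell with it, at r = -0.51 and rho = -0.55 (adjusted permutation p = 0.0033 and 0.0008, -0.59 without the 2) and at r = -0.54 and rho = -0.36 (adjusted permutation p = 0.00715 and 0.0409, -0.38 without the 2). Ltbp1 had r = -0.41 and rho = -0.21 with it (adjusted permutation p = 0.0207 and 0.289, -0.41 without the 2), and r = -0.17 without the 4 epithelium-poor tumours. Eng had r = -0.43 and rho = -0.27 with the epithelial list (adjusted permutation p = 0.0163 and 0.151, -0.28 without the 2). Tgfb3 followed the milk protein list (r = 0.55, rho = 0.45, adjusted permutation p = 0.0006 and 0.00831, 0.42 without the 2). The macrophage list passed by r with 4 members. They were Ltbp1 and Tgfbr1, at r = 0.51 and rho = 0.34 (adjusted permutation p = 0.0033 and 0.051, 0.44 without the 2) and at r = 0.44 and rho = 0.62 (adjusted permutation p = 0.00809 and 0.0004, 0.61 without the 2), and Tgfbr2 and Tgfb1, at r = 0.46 and rho = 0.43 (adjusted permutation p = 0.00651 and 0.0128, 0.40 without the 2) and at r = 0.42 and rho = 0.39 (adjusted permutation p = 0.0163 and 0.0236, 0.40 without the 2). The lymphoid list, with 2 of 8 measured genes above the filter, passed by r with 4 members. They were Tgfbr1 (r = 0.46, rho = 0.49), Eng (r = 0.41, rho = 0.49), Ltbp3 (r = -0.48, rho = -0.38) and Ltbp4 (r = 0.37, rho = 0.32). Their adjusted permutation p was 0.00517, 0.0208, 0.00517 and 0.0471 for r, and 0.00411, 0.00411, 0.029 and 0.0695 for rho. Without the 2 farthest tumours r was 0.46, 0.29, -0.46 and 0.25 in that order. The part of cell makeup in these relations was not tested.

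**Figure D5:**
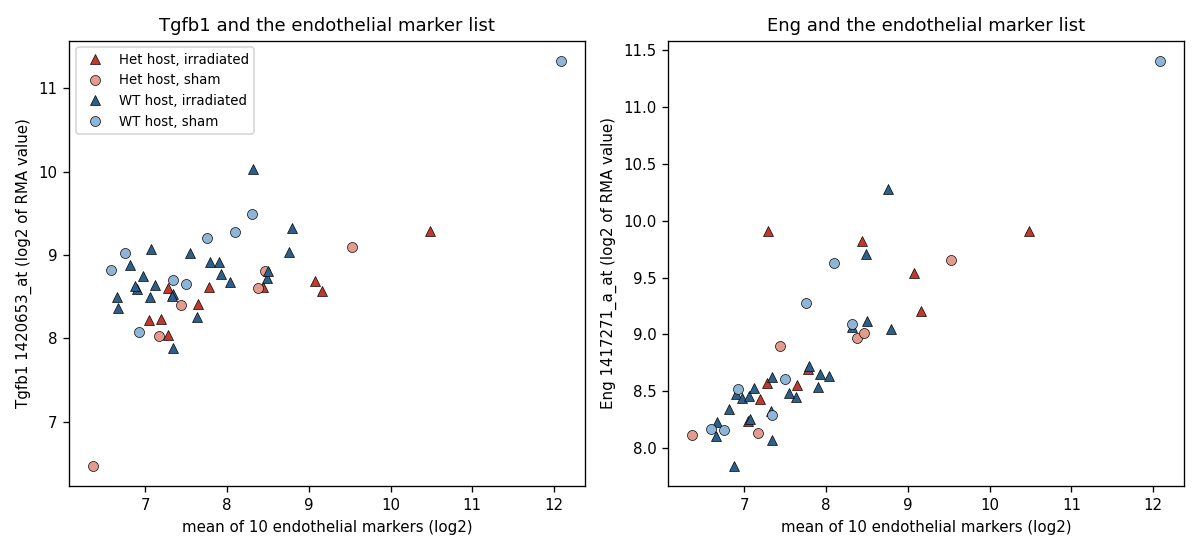
Tgfb1 (left) and Eng (right) against the mean of 10 endothelial markers, all on the log2 scale, in 48 tumours by host genotype and treatment. Sham WT tumour 5 lies at 12.09 on the marker axis, and sham Het tumour 3 at 6.36 with Tgfb1 at 6.47.

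The genes most like 6 members across the 48 tumours were named by Pearson r over all tested probe sets, as a description. For Eng they were Tek (r = 0.86), Cdh5 (r = 0.86) and Robo4 (r = 0.85), all endothelial. All belong to the endothelial list used above, so these values are part of that relation and not a separate one. For Tgfb1 they were Septin11 (r = 0.77), Epas1 (r = 0.75) and Tnfrsf22 (r = 0.74), which were 0.66, 0.48 and 0.60 without the 2 tumours farthest from its median. For Ltbp4 they were the elastic fibre gene Emilin1 (r = 0.85), Hoxd8 (r = 0.83) and Heyl (r = 0.81), which were 0.66, 0.60 and 0.58 without the 2. Mia3, which acts in the export of large secreted proteins, came first for both Tgfb2 (r = 0.71) and Tgfb3 (r = 0.65), through different probe sets. Mia3 and Tgfb2 both lie on chromosome 1, and Tgfb3 lies on chromosome 12. What links their levels was not tested. Tspan15 and Folr1 followed for Tgfb2 (r = 0.68 and 0.67), and Xdh and Nav3 for Tgfb3 (r = 0.62 and 0.61). Without the 2 tumours farthest from the median of the member, Tspan15 and Folr1 had 0.70 and 0.68. Xdh and Nav3 then had 0.43 and 0.48, and Mia3 had 0.81 with Tgfb2 and 0.62 with Tgfb3. For Tgfbr2 they were Gripap1, Ripor1 and Pla2g15 (r = 0.76, 0.72 and 0.72), which were 0.66, 0.66 and 0.65 without the 2.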

How the data were processed

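RMA (background correction, normalization and probe summary) was used, per the submitters' processing notes, for both tissues. The deposited unit was linear intensity for glands, converted to log2 here, and log2 as deposited for tumours, so the tissues were kept apart. The log2 array median was 4.86 to 4.93 for glands and 5.84 to 5.96 for tumours. Signal over background is not in the values, and the array number limits precision. Groups came from the labels. The labels do not tie gland repeats to animals, so their p-values measure a spread that may be technical.

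Differences were fitted with limma 3.58.1 in R 4.3.3 (lmFit, eBayes with trend, 1 mean per group), on single-gene probe sets at or above the 40th percentile (4.55 in glands, 5.58 in tumours). P-values were two-sided and Benjamini-Hochberg adjusted over 20975 probe sets. On simulated gland data the averaged genotype test recovered 76.1% of 67 probe sets changed 1.5-fold and 95.5% of 67 changed 2-fold. On simulated tumour data the sham-host genotype test recovered 14.9% and 65.7%. The simulated noise was independent between probe sets, which that of real arrays need not be. Adjusted p-values also depend on how many probe sets change, which the simulation set and the real data do not give. These shares therefore do not bound what the real tests could miss. All members are named. The pathway genes named were the 3 with the smallest p in a described list and comparison, since none was called, and the most alike genes the top 3 by r. Replicate numbers did not pair arrays by the deviations' correlation. The members and lists were chosen with earlier results of these data known. Filters, scaling, covariates and left-out arrays were varied.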

Additional observations from a re-analysis of the deposited data

Results flagged for a closer look

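Values far from the rest of their group were sought by Dixon's test in tumour groups of 6 to 10 arrays. Of 54 combinations of member probe set and group, 8 held such a value. Chance gives this in about 1 of 20 independent groups. The combinations share tumours, and some share a gene, so 8 of 54 cannot be set against that rate. In sham WT hosts tumour 5 was highest for Tgfb1 (11.33, next 9.49), Eng 1417271_a_at (11.4, next 9.62) and Ltbp4 (9.83, next 6.86), and tumour 8 was highest for Tgfb3 (10.64, next 9.55). In sham Het hosts tumour 3 was highest for Tgfb2 at 1423250_a_at (10.34, next 9.00) and 1450923_at (10.15, next 8.61), and tumour 2 for Ltbp4 (7.05, next 6.60). In irradiated Het hosts tumour 12 was highest for Tgfb1 (9.29, next 8.69), and it had the highest endothelial marker mean of its group, 10.48.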

How the results depend on the processing

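The 1 member call, Tgfb1 lower in Het glands, became 0 under a stricter filter at the 60th percentile, which leaves its probe set untested. It also became 0 without the 4 muscle-rich glands (difference -0.98, limma adjusted p = 0.106), without the 3 lymphoid-rich glands (-0.80, 0.14) and with the milk list as a covariate (-0.83, 0.0564, chosen after seeing the data). Leaving out 1 gland at a time gave 0 to 1 called members. With a replicate block the difference was -0.86 (limma adjusted p = 0.0438), and the block changed no other member call, though the numbers do not pair the arrays. Same-numbered arrays correlated from -0.50 to 0.41 in glands and from -0.44 to 0.60 in tumours. Without a filter, with 1 probe set per gene, quantile normalization, a median shift, no variance trend, array weights or the muscle, lymphoid or epithelium covariate the call stayed, at -0.90 to -0.81. No member was newly called or reversed under any alternative run, and in the other 15 comparisons 0 members were called throughout. Uncalled differences changed sign in 456 of 5995 gland values and 127 of 5510 tumour values. The count of all probe sets called for the averaged genotype comparison was 9 in the fit reported, 4 to 22 with 1 gland left out and 0 to 11 under the other settings. For 4 against 1 week it was 0, up to 44 (without Het 1-week replicate 1) and up to 16, with 0 members among them. On deviations from group means 15 pairs of members passed across tumours, against 8 on levels. Low signal is a limit too: the called Tgfb1 probe set lies at the 41.8th percentile of the glands.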

Other observations

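Cdkn1a, a growth arrest gene that TGF-beta and p53 induce, was not described above. In glands at 1 week after 10 cGy it gave -0.78 for Het minus WT (SE 0.16, limma adjusted p = 0.579). Irradiated minus sham in WT at 1 week was 0.50 (SE 0.14, limma adjusted p = 0.997), and the change in Het minus that in WT was -0.76 (SE 0.21, limma adjusted p = 1).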
